A study of Danio rerio with 2 samples.

Results

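Genes that carry vitamin A and that make or break down its active acid were compared between a library of whole zebrafish embryos and a library of adult zebrafish liver. The genes were chosen by name, from a list of 10 symbols. Of these, 9 were found among the 27098 gene features of both tables (rbp4, rbp4l, rbp2a, crabp1a, crabp2a, stra6, aldh1a2, cyp26a1 and cyp26b1), and 1 is not analysed here. All 9 had at least 10 counts in a pool, the minimum used here for a measured gene.

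Both sources were fish kept for 48 h with human hepatotoxicants. The labels name 9: the estrogen 17a-ethynylestradiol, the drugs valproic acid, cyclosporine A, amiodarone, acetaminophen, chlorpromazine and tetracycline, the herbicide paraquat, and thioacetamide. Each embryo sample was made of 15 whole embryos, and the liver was taken from the adults after exposure. Equal amounts of RNA from the samples of a source were mixed, so that every source is 1 sequenced library in which all exposures are blended. Strain, embryo age, and the age and sex of the adults were not stated in the labels, and no unexposed library was analysed here. With 1 library per source there is no replicate check and no test between the sources, and the differences below belong to these 2 pools.

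Vitamin A travels in blood as retinol bound to a carrier protein secreted by the liver, which is also the main store of the vitamin as retinyl ester. Cells take retinol up through membrane receptors, hold it on small intracellular carriers and oxidise it by way of retinaldehyde to retinoic acid. Retinoic acid binds nuclear receptors and is removed by enzymes of the CYP26 family. In the vertebrate embryo, synthesis in some tissues and breakdown in others set the retinoic acid levels that pattern the hindbrain, somites, heart, fins and eye.

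The carriers rbp4 and rbp2a were higher in the liver library, and the other 7 genes were higher in the embryo library, 2 of them with no liver read. Levels are given as counts scaled to a common library size (CPM). A difference was called when the exact 95% interval of the CPM ratio reached 4-fold throughout, with 10 or more counts on the higher side. By this rule 2 of the 9 genes were called in the liver direction, against 3.35% of 21750 measured features, and 7 of 9 in the embryo direction, against 30.9%. Over the 9 genes the log2 ratio, liver over embryo, had a median of -5.09, and over all measured features one of -1.60. With trimmed-mean (TMM) factors in place of library totals, which moves every log2 ratio by 1.35 toward the liver, the calls were 2 and 6, beside backgrounds of 8.06% and 15.8%. Median-of-ratios size factors moved the ratios by 1.38 and again gave 2 and 6, beside 8.19% and 15.5%. At a 2-fold threshold the calls were 2 and 7, beside 6.46% and 52.4%. No gene of the 9 changed direction under either scaling. In RNA of whole embryos and whole livers, fewer cells of a type and less RNA per cell cannot be told apart.

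**Figure D1:**
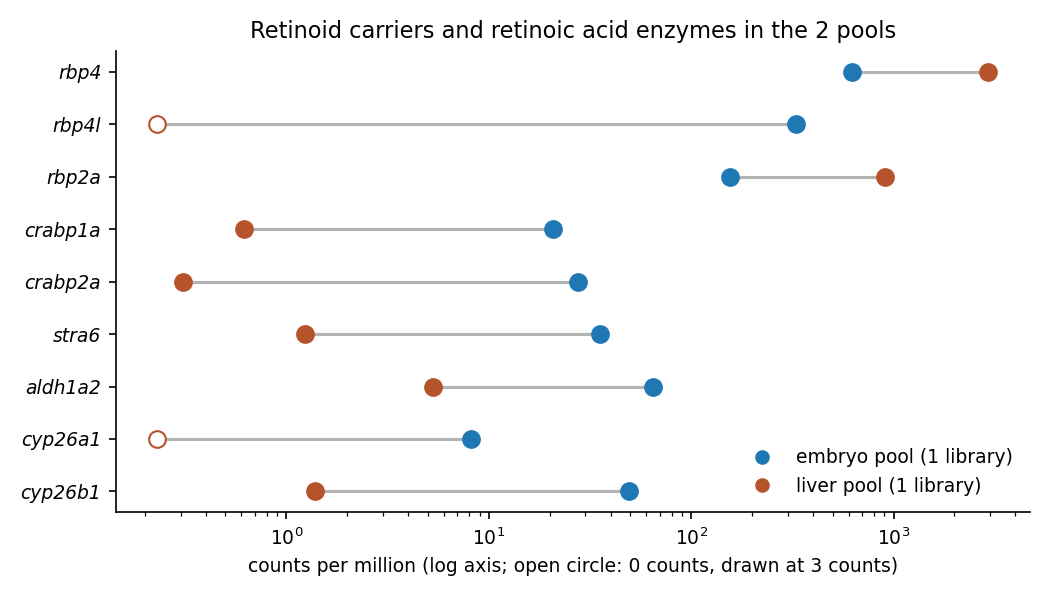
CPM of the 9 genes on a log axis, with 1 point for the embryo library (blue) and 1 for the liver library (brown); an open circle is a gene with 0 counts, drawn at the level of 3 counts. Only rbp4 and rbp2a lie farther right in the liver library, at 2936 and 902 CPM, while rbp4l and cyp26a1 have no liver count.

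The libraries held 11408727 counts (embryo) and 13020149 counts (liver) assigned to genes, so that 3 counts per library, the floor used in place of 0, are 0.263 and 0.230 CPM. Intervals and floors cover counting error only, and reads that are PCR copies of each other make them too narrow. The tissue labels were checked against marker genes. All 6 hepatocyte markers were called higher in the liver library, at a summed 48094 CPM against 1404 CPM, and 4 fast muscle markers summed to 34734 CPM in the embryo library and 2.84 CPM in the liver library. Markers of other cells were present in the liver library as well. The 4 exocrine pancreas genes summed to 873 CPM there and 2979 CPM in the embryo library, and the 5 matched enterocyte genes to 1052 and 1494 CPM. Of the 13696 liver counts of the enterocyte genes, 10181 were of apoa4b.1. Of these 5 genes, 3 were called higher in the embryo library and none in the liver library.

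**Figure D2:**
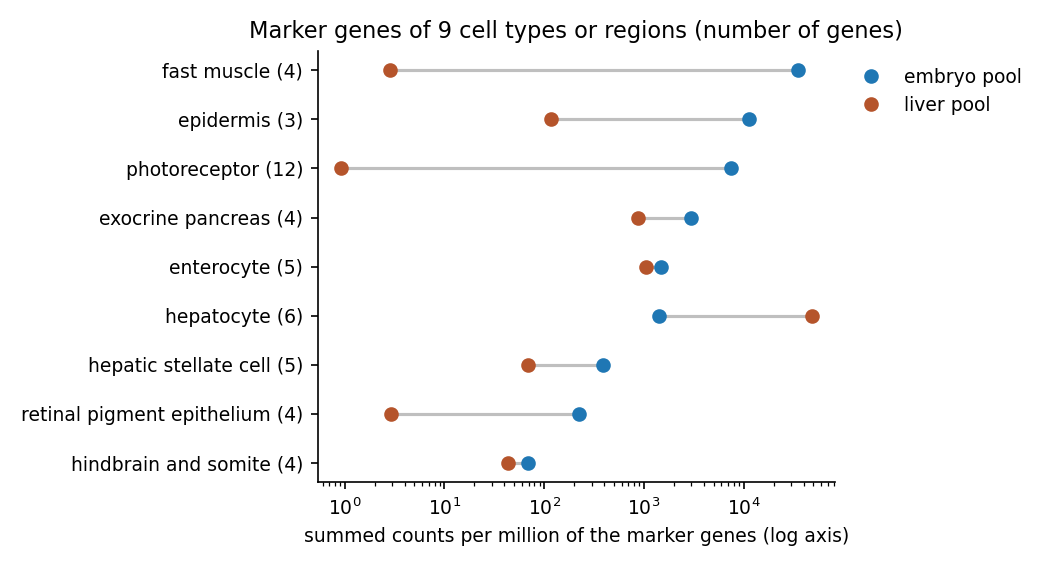
Summed CPM, on a log axis, of marker genes for 9 cell types or regions in the embryo library (blue) and liver library (brown), with the number of matched genes in brackets. The 12 photoreceptor genes reach 7428 CPM in the embryo library and 0.922 CPM in the liver library, and the 6 hepatocyte genes 1404 and 48094 CPM.

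The plasma carrier rbp4, which in vertebrates brings retinol from the liver to other tissues, had the most total reads of the 9 genes in both pools, though not the most unique reads. It had 7132 counts or 625 CPM in the embryo library and 38222 counts or 2936 CPM in the liver library. That is a 4.70-fold higher level in the liver library (95% interval 4.58 to 4.82). On the authors' length-adjusted scale (RPKM, reads scaled to exon length and library depth) it stood at 3276 in the liver library, rank 23 of 18485 features above 0. In the embryo library its RPKM was 699.9, rank 147 of 22805. These ranks, like the totals, include reads with several positions.

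Most rbp4 reads fitted more than 1 place in the genome. Unique reads were 326 of 7132 in the embryo library (4.57%) and 1965 of 38222 in the liver library (5.14%), against 85.1% and 80.2% of all gene reads. Every one of these unique reads crossed an exon-exon junction. Among multi-exon features with at least 100 reads, 120 of 12786 in the embryo library and 74 of 7367 in the liver library had at least 10 unique exon reads and the same property. The values of rbp4 are therefore uncertain to the extent that another locus gave some of the reads. By unique reads, which for rbp4 hold only junction reads, its place among the 9 genes was lower. In the embryo library its 326 unique reads lay below the 3744 of rbp4l and the 1744 of rbp2a. They also lay below the 716 of aldh1a2, the 563 of cyp26b1 and the 397 of stra6. In the liver library its 1965 lay below the 11736 of rbp2a. The direction between the libraries did not turn, with a liver to embryo ratio of 5.61 for unique reads alone and 4.45 for exon reads.

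The related gene rbp4l showed the opposite extreme. It had 3744 embryo counts (328 CPM) and no liver count, and all of its embryo reads were unique. Against the floor of 3 liver counts it was 1424-fold higher in the embryo library, with a lower counting limit of 1158. The order of the pair in the embryo library differed between total and unique reads. Reads of rbp4 were 65.6% of the total reads of the pair there and 8.01% of the unique reads (326 of 4070). Only junction reads of rbp4 were unique, so unique reads leave out its other exon reads and do not rank the pair by abundance. In RPKM, which takes in reads with several positions, rbp4 stood at 699.9 and rbp4l at 386. In the liver library all reads of the pair were of rbp4. The 12 photoreceptor markers moved the same way as rbp4l. All 12 were called higher in the embryo library, with 84745 counts there (7428 CPM) and 12 in the liver library (0.922 CPM), and 7 of them, rho among them, had no liver read. These are total reads, and only 571 of the 18512 embryo reads of rho were unique. The genes pde6a and pde6c had no unique read and were not called by unique reads, while the other markers kept their call. Called higher in the embryo library as well were all 4 fast muscle, all 3 epidermis and all 4 retinal pigment epithelium markers. Of all measured features, 30.9% had that call. The part of photoreceptor RNA in the rbp4l difference was not tested.

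Transthyretin, the partner that holds rbp4 in the circulation in mammals, went with rbp4. For ttr, 154 counts in the embryo library stood against 1479 in the liver library, 8.42-fold higher in the latter (lower 95% limit 7.12). It is also 1 of the 6 hepatocyte markers.

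Inside cells, retinol is held by the cellular retinol-binding proteins, of which rbp2a is the named one here; in mammals this protein is known from the absorptive cells of the small intestine. It had 1768 counts or 155 CPM in the embryo library and 11746 counts or 902 CPM in the liver library, 5.82-fold higher in the latter (5.54 to 6.12). Nearly all reads were unique, 98.6% and 99.9%, so the doubt over rbp4 does not extend to this gene. Its RPKM of 1703 in the liver library had rank 51, and its 288 in the embryo library had rank 286. Together rbp4 and rbp2a made up 99.8% of the liver reads of the 9 genes, or 99.2% of the unique ones. In the embryo library they made up 59.3% of the total reads and 26.1% of the unique ones. The unique shares leave out most reads of rbp4.

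The paralog rbp2b differed more between the pools than rbp2a. It had 401 embryo counts and 7245 liver counts, a level 15.8-fold higher in the liver library (14.3 to 17.6), and its interval did not overlap that of rbp2a. In RPKM rbp2a still exceeded rbp2b in both pools, by 4.72 times in the embryo library (288 against 61.1) and by 1.77 times in the liver library (1703 against 964). Of the enterocyte markers, fabp2, vil1 (vil1l in the files) and cdx1b were called higher in the embryo library, the opposite direction, and vil1 alone kept that call under TMM and size-factor scaling. The apolipoprotein gene apoa4b.1 (apoa4 in the files) and the chitinase gene chia.1 (zgc:56053 in the files) had more counts in the liver library, 10181 and 2586, and with library totals neither was called. Under TMM scaling chia.1 was called higher in the liver library, at a ratio of 5.23 (4.88 to 5.62), as it was with size factors. The part of enterocyte RNA in the rbp2a and rbp2b values was not tested.

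Both cellular retinoic acid-binding proteins were higher in the embryo library. These small proteins hold retinoic acid in the cytosol, crabp2 in mammals being known to deliver it to the nuclear receptor. In the embryo library crabp1a had 238 counts (20.9 CPM) and crabp2a 316 counts (27.7 CPM). The liver library had 8 counts (0.614 CPM) of crabp1a and 4 counts (0.307 CPM) of crabp2a, few enough that the ratios have wide intervals. The embryo level of crabp1a was 34.0-fold higher (17.0 to 79.6) and that of crabp2a 90.2-fold higher (34.9 to 333), and these intervals overlap. None of the 8 liver reads of crabp1a lay in an annotated exon. Of its 238 embryo reads 166 did (69.7%), against 85.6% of all gene reads of the embryo library. Per length, the order in the embryo library was crabp1a, at 20.2 RPKM, before crabp2a, at 10.7 RPKM. Only 47.2% of the embryo reads of crabp2a were unique (149 of 316), which limits its level. By unique reads the embryo level was 40.0-fold higher (15.3 to 149) for crabp2a and 44.7-fold higher (18.9 to 139) for crabp1a. These rest on 4 and 5 unique liver reads and their intervals overlap as well, so the order of the ratios was not settled.

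Their duplicates went in the same direction. For crabp1b the counts were 83 in the embryo library and 5 in the liver library, 18.9-fold higher in the embryo library (7.80 to 59.9), a call lost under TMM and size-factor scaling. The second copy of the other carrier, crabp2b, had 226 and 52 counts, and its 4.96-fold higher embryo level (3.66 to 6.84) did not meet the 4-fold rule. It was named as the paralog of crabp2a, whose ratio interval did not overlap that of crabp2b.

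**Figure D3:**
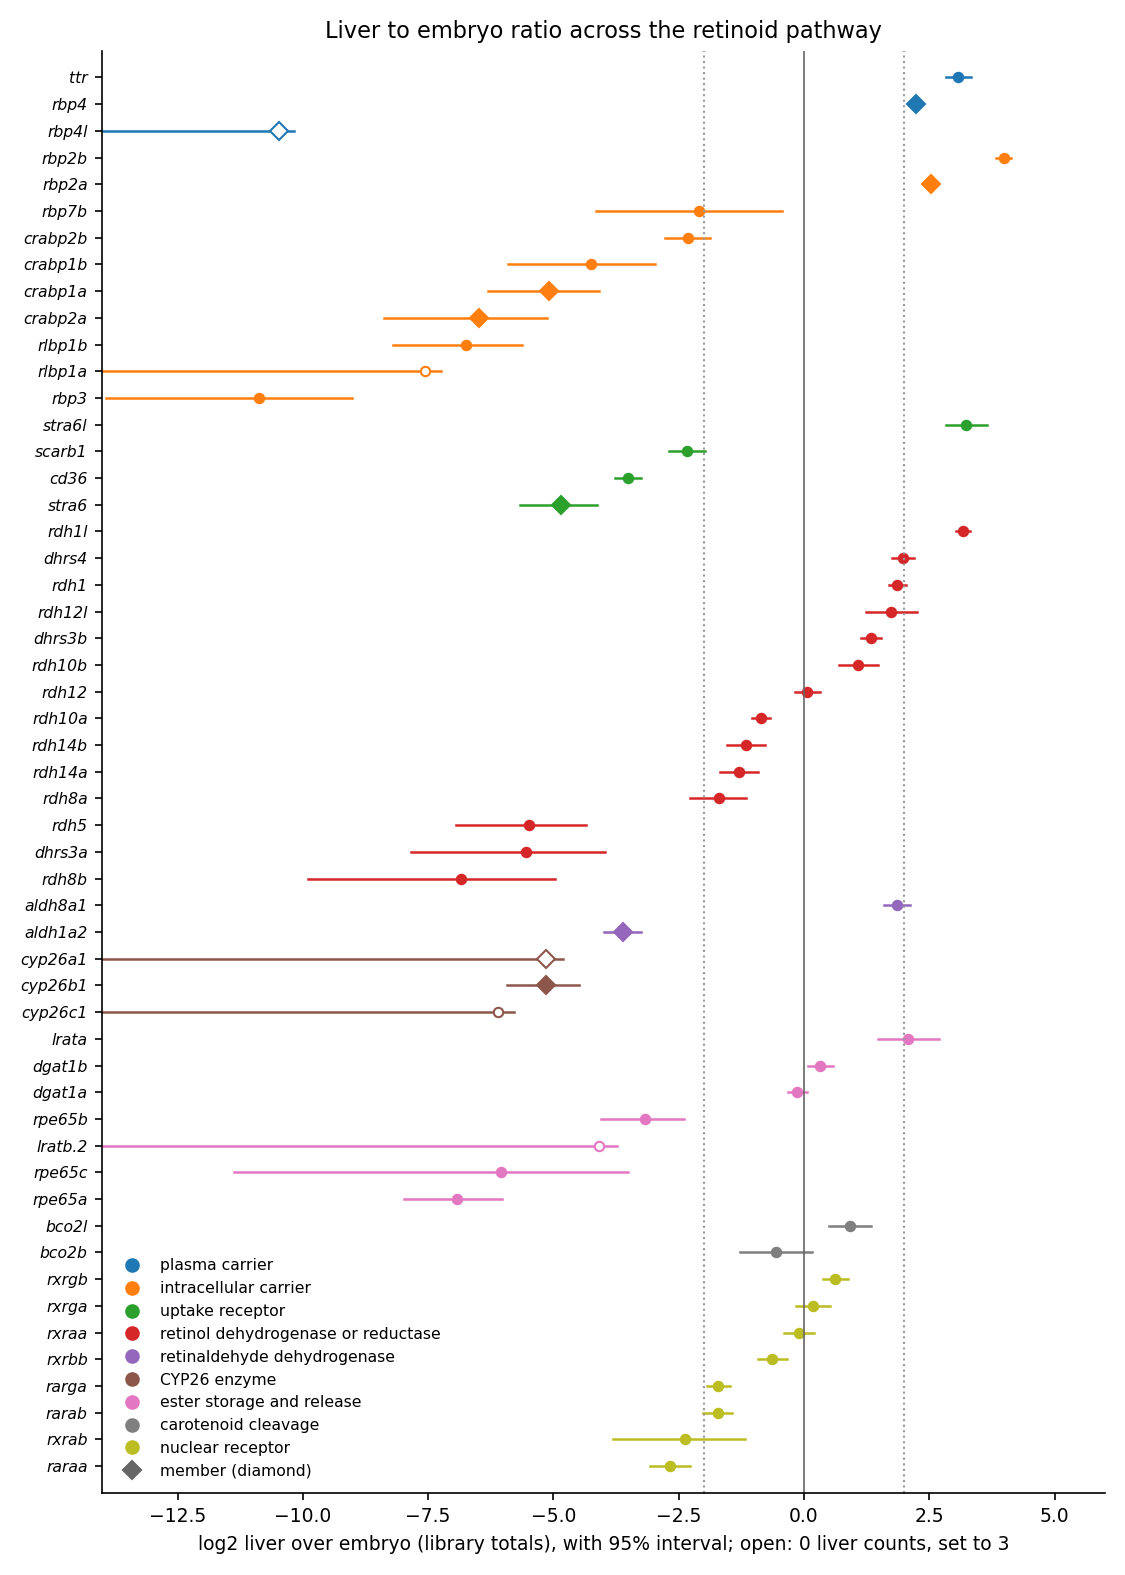
Log2 ratio of liver over embryo with library totals for the 9 genes (diamonds) and 44 measured genes of the wider retinoid list (circles), coloured by role, with exact 95% intervals; dotted lines mark 4-fold and open symbols 0 liver counts set to 3. Genes to the right of the upper dotted line with their whole interval are ttr, rbp4, rbp2b, rbp2a, stra6l and rdh1l.

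Receptors for retinol uptake differed by paralog. The gene stra6 encodes the membrane receptor for the rbp4 protein, known for its place in the eye. It had 404 embryo counts (35.4 CPM) and 16 liver counts (1.23 CPM), 28.8-fold higher in the embryo library (17.5 to 50.9). Of the 16 liver reads only 2 lay in exons (12.5%, exact 95% interval 1.55 to 38.3), against 374 of the 404 embryo reads. With exon reads alone, 374 and 2, the embryo level was 225-fold higher (61.7 to 1861). The related receptor gene stra6l (zgc:162946 in the files) had 58 embryo counts and 620 liver counts. It was 9.37-fold higher in the liver library (7.15 to 12.5), with 573 of its liver reads in exons. In RPKM, stra6 exceeded stra6l by 5.94 times in the embryo library (11.4 against 1.92), whereas in the liver library stra6l had 18.1 and stra6 0.0533.

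The other uptake genes on the list leaned to the embryo library. The scavenger receptor gene cd36 had 1392 embryo counts and 140 liver counts, 11.3-fold higher in the embryo library (9.53 to 13.6), a call lost under TMM and size-factor scaling. Its relative scarb1, which takes up carotenoids, had 356 and 81 counts and a ratio just short of the rule, 5.02-fold (3.93 to 6.47); with exon reads it was called. The 4 retinal pigment epithelium markers, 2 of which (rpe65a and rlbp1b) are also genes of the retinoid list, summed to 221 CPM in the embryo library and 2.92 CPM in the liver library. Their part in the stra6 difference was not tested.

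**Figure D4:**
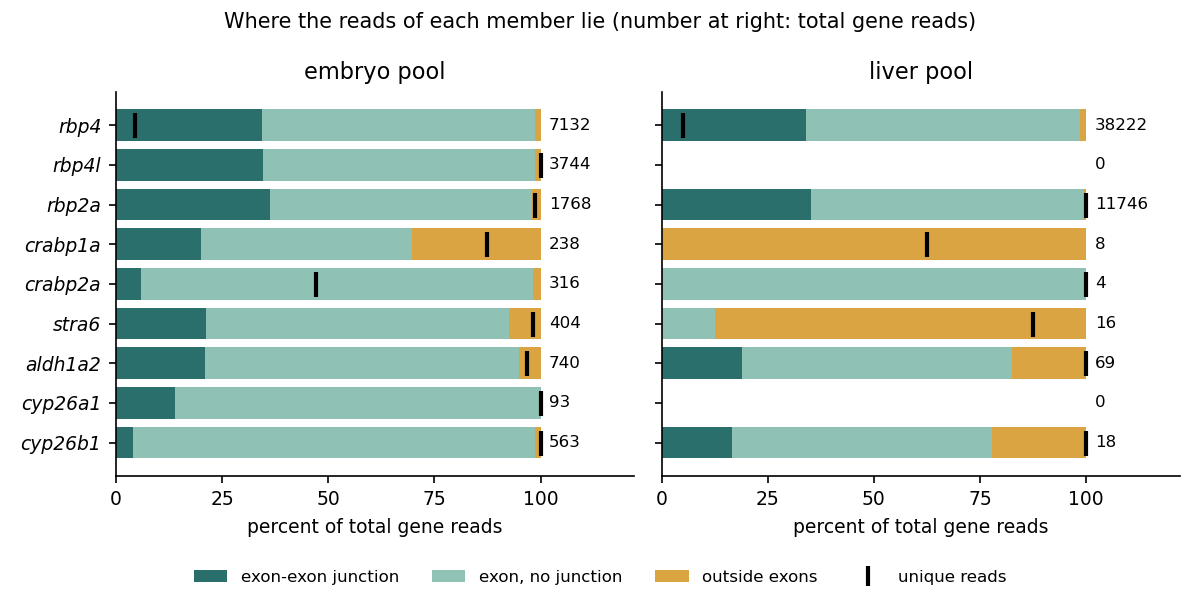
Percent of the total gene reads of each gene that crossed an exon-exon junction, lay in exons without a junction or lay outside exons, in the embryo library (left) and liver library (right); black ticks give the percent of unique reads and numbers the total gene reads. The liver reads of crabp1a (8) and stra6 (16) lay mostly outside exons, and the unique reads of rbp4 were 4.57% and 5.14% of its total.

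The synthesis gene aldh1a2 and the breakdown genes cyp26a1 and cyp26b1 were higher in the embryo library, a call that aldh1a2 lost under TMM and size-factor scaling. Retinaldehyde is oxidised to retinoic acid by the enzyme of aldh1a2, the main source of the acid in early vertebrate embryos. The gene had 740 embryo counts (64.9 CPM) and 69 liver counts (5.30 CPM), 12.2-fold higher in the embryo library (9.55 to 15.9). This was the smallest embryo-direction ratio of the 7 genes and the only call lost on scaling. With TMM factors the ratio was 4.79 and the interval reached down to 3.74. Of the 69 liver reads, 57 lay in exons and 13 crossed a junction, so that spliced aldh1a2 RNA was present in the liver library. The dehydrogenase gene aldh8a1, whose mammalian enzyme has been reported to act on a cis form of retinaldehyde, had 156 embryo counts and 646 liver counts. It was 3.63-fold higher in the liver library (3.04 to 4.35), short of the rule with library totals and called under TMM and size-factor scaling.

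The breakdown enzymes had even fewer liver reads. For cyp26a1 the counts were 93 in the embryo library (8.15 CPM) and 0 in the liver library. Against the floor it was 35.4-fold higher in the embryo library, with a lower counting limit of 28.2. For cyp26b1 the counts were 563 (49.3 CPM) and 18 (1.38 CPM), 35.7-fold higher in the embryo library (22.4 to 60.7). The third gene of the family, cyp26c1, had 181 counts in embryos and 0 in liver. Against the floor its fold was 68.9, with a lower counting limit of 55.4. All embryo reads of the 3 genes were unique. Their order by RPKM in the embryo library was cyp26b1 at 14.6, cyp26a1 at 4.45 and cyp26c1 at 3.95. The RPKM of aldh1a2 was 1.19 times the sum of these 3 in the embryo library (27.5 against 23.0) and 6.03 times in the liver library (1.95 against 0.324). The liver sum rests on 14 exon reads of cyp26b1. Both RPKM sums are levels of RNA and not of enzyme activity. Markers of the hindbrain and somites were sparse in both pools, at a summed 69.0 CPM in the embryo library and 43.0 CPM in the liver library, of which mafba gave 541 of 787 and 553 of 560 counts. Called higher in the embryo library were egr2b (78 and 4 counts) and myod1 (150 and 0), egr2b not under TMM and size-factor scaling. Neither mafba nor tbx16 (18 and 3 counts) was called.

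The wider retinoid pathway was read from a list of 56 further symbols in 9 roles, 46 of which matched a feature and 44 of which were measured. By the same rule 4 were higher in the liver library, 14 in the embryo library and 26 in neither, shares to set against the 3.35% and 30.9% of all measured features. Their median on the log2 scale was -1.22, liver over embryo. Under TMM scaling 11 and 10 were called, and 7 uncalled genes turned from the embryo to the liver side.

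Retinol dehydrogenases and reductases, which interconvert retinol and retinaldehyde, were called in both directions. Of 14 measured, 1 was higher in the liver library and 3 in the embryo library, or 6 and 3 under TMM scaling, beside 3.35% and 30.9% of all measured features, or 8.06% and 15.8% under TMM scaling. The liver gene was rdh1l, for which RefSeq gives the symbol dhrs9, with 486 embryo counts and 4997 liver counts, 9.01-fold higher (8.21 to 9.91). The next most abundant, rdh1 and dhrs4 (zgc:65987 in the files), were 3.64-fold (3.24 to 4.08) and 3.91-fold (3.36 to 4.56) higher in the liver library. Only 60.4% of the embryo reads and 58.1% of the liver reads of rdh1 were unique. By unique reads its ratio was 3.71 (3.20 to 4.32). At 4-fold, rdh1 and dhrs4 were called only under TMM and size-factor scaling, and at 2-fold also with library totals. Those called in the embryo direction were rdh5, with 236 embryo counts and 6 liver counts, rdh8b (rdh8l in the files), with 201 and 2, and dhrs3a, with 123 and 3. In mammals rdh5 and rdh8 serve the visual cycle, and dhrs3 reduces retinaldehyde back to retinol. The duplicate dhrs3b, named after its values were seen, had 270 and 776 counts, but only 73 of its liver reads lay in exons, and with exon reads its direction turned to the embryo library.

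Other genes called in the embryo direction are known from the visual cycle of the eye. The interphotoreceptor carrier rbp3 (irbp in the files) had 3306 embryo counts and 2 liver counts, a ratio of 1886 (522 to 15584). The retinaldehyde carriers rlbp1a and rlbp1b had 494 and 567 embryo counts and 0 and 6 liver counts. The isomerohydrolase gene rpe65a had 1061 embryo counts and 10 liver counts, none of the latter in exons. Its relatives rpe65b, with 119 and 15 counts, and rpe65c (LOC100004076 in the files), with 58 and 1, were also called, rpe65b not under TMM scaling. Only 65.5% of the embryo reads of rpe65b and 62.1% of those of rpe65c were unique, and by unique reads both kept their call. The photoreceptor markers given above moved with these genes, as did rgra and pmela (rgr and silva in the files) of the pigment epithelium set. The genes rpe65a and rlbp1b belong to that set themselves, so their agreement with it was fixed in advance. The part of photoreceptor and pigment epithelium RNA in the differences was not tested.

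The retinol acyltransferase genes, whose enzymes turn retinol into its stored ester, had few reads in either library. One of them, lratb.2 (LOC556575 in the files), had 45 counts in embryos and none in liver. Against the floor its fold was 17.1, with a lower counting limit of 13.4. Another, lrata, named after its values were seen, had 29 and 139 counts, 4.20-fold higher in the liver library (2.80 to 6.50). At 4-fold, lrata was called only under TMM and size-factor scaling, and at 2-fold also with library totals. Neither dgat1a, with 452 and 469 counts, nor dgat1b, with 225 and 321, was called under any of the 3 scalings. Hepatic stellate cells are the retinyl ester store of the vertebrate liver. Their 5 markers summed to 69.0 CPM in the liver library and 388 CPM in the embryo library, with colec11 alone called higher in the liver library (53 and 535 counts). Most of the 4429 embryo counts came from desma (desm in the files) and acta2. These had 1494 and 2535 embryo counts and 12 and 214 liver counts, and both were called higher in the embryo library. Whether these reads came from stellate cells or from other cells of the embryos was not tested. The sums therefore do not compare stellate cells between the libraries. Neither hand2 nor pdgfrb was called. Among the carotenoid-cleaving enzymes bco2l (bcdo2l in the files) had 70 and 150 counts, bco2b 40 and 31, and bco2a 4 and 0, and none was called.

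Nuclear receptors of the retinoic acid and retinoid X classes, which switch target genes on when bound by retinoids, were read in both libraries. Of 8 measured, none was called in the liver direction, where 3.35% of all features were, and 1 in the embryo direction, where 30.9% were. It was raraa, with 357 embryo counts and 64 liver counts, 6.37-fold higher in the embryo library (4.87 to 8.44) and not called under TMM scaling. Only 19 of the 64 liver reads of raraa lay in exons. With exon reads it was 16.8-fold higher in the embryo library (10.6 to 28.4). The most abundant, rarga, had 587 and 205 counts, rarab 383 and 133, and rxrgb (zgc:92183 in the files) 220 and 387. Exon reads moved rarga into the calls, since only 56 of its 205 liver reads lay in exons.

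**Figure D5:**
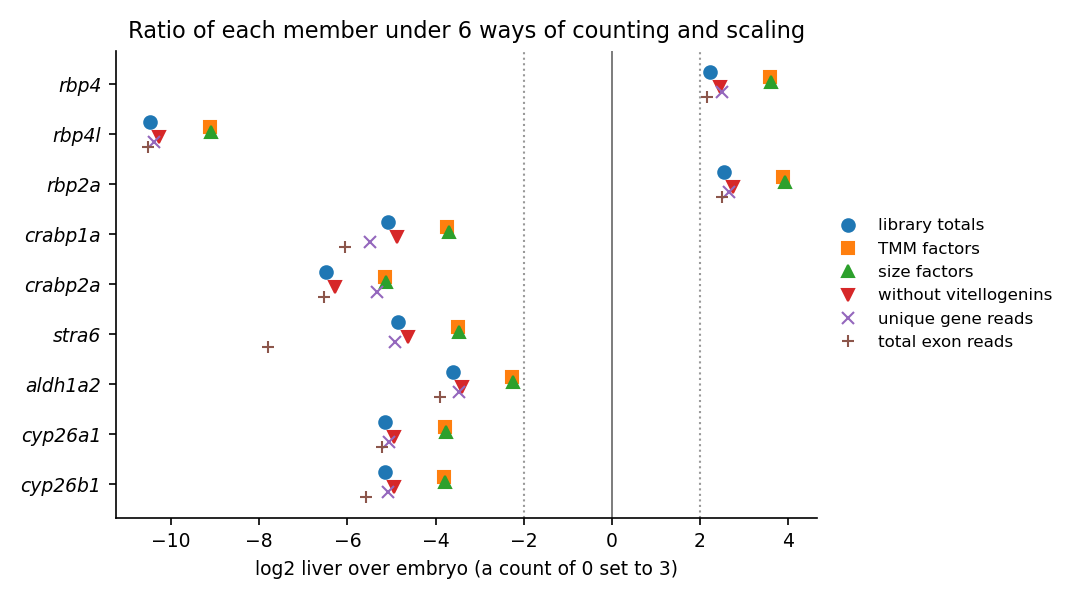
Log2 ratio of liver over embryo for the 9 genes under 6 ways of counting and scaling, with dotted lines at 4-fold and counts of 0 set to 3. TMM and size factors lie to the right of library totals by 1.35 and 1.38, and the value of stra6 with exon reads lies left of its other values.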

How the data were processed

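RNA sequencing libraries of pooled RNA, 1 from embryos and 1 from livers, were analysed, grouped by the tissue label. Read counts per gene feature were deposited by the authors, per the file headers, as unique reads (1 position) and total reads (also several positions), over whole genes, over exons, and across junctions or intron boundaries. RPKM was deposited by the authors and equalled total exon reads per exon length and total gene reads, to within 0.0878 reads. The deposited median coverage, a signal value per the file headers, was not used. The aligner, annotation, genome build and strand setting were not given in the sources used here; coordinates are therefore left out.

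Total gene reads were scaled to library totals (CPM), and ratios carry exact 95% Clopper-Pearson intervals on the conditional binomial. Calls needed an interval at or beyond 4-fold and 10 counts, and 3 counts replaced 0. Alternatives were TMM factors (edgeR 4.0.16), size factors (DESeq2 1.42.0), totals without vitellogenins, unique reads, exon reads, a 2-fold threshold, 1 count in place of 0, and minimums of 50 counts or none. Genes and lists were chosen with earlier results of these data known. The wider list's symbols were matched by name (36), RefSeq synonym (8; assembly GRCz12tu, names only) or gene number (2); 1 shared another's feature and 9 were not matched. Some list genes are not reported here. Named were all 9 genes and, by role, the 3 most abundant and every called gene of the wider list, with exceptions stated beside them. Python 3.11.15 with scipy 1.17.1 was used.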

Additional observations from a re-analysis of the deposited data

How the results depend on the processing

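The 7 embryo calls and 2 liver calls among the 9 genes stood under unique reads, exon reads, totals without vitellogenins, a 2-fold threshold and count minimums of 50 or none. TMM and size factors each removed aldh1a2, leaving 6. In the wider list the 4 liver calls became 11 with TMM factors, 11 with size factors and 10 at 2-fold, while the share of all measured features went from 3.35% to 8.06%, 8.19% and 6.46%. Its 14 embryo calls ranged from 10 (TMM and size factors) to 20 (2-fold), while the share of all features went from 30.9% to 15.8%, 15.5% and 52.4%. Of 47 alternative ratios of the 9 genes, 23 left the main 95% interval and none changed direction. By unique reads the embryo order of rbp4 and rbp4l turned, though unique reads leave out most reads of rbp4. The intervals of the crabp1a and crabp2a ratios overlapped by total and by unique reads, so their order was not settled. No paired analysis was possible because each source has 1 library, and for that reason no library could be left out. Depth limits cyp26a1, whose 93 embryo counts bound its fold, and the genes with 8 or fewer liver counts.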

Other observations

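The 2 nearest features of each of the 9 genes in the tables were listed, and those named here were picked after their values were seen. Neighbours of rbp2a, crabp1a, crabp2a, cyp26a1 and cyp26b1, and the nearest one of rbp4, were called in neither direction. Over all measured features, 30.9% were called in the embryo direction and 3.35% in the liver direction. Within 27190 bases of aldh1a2 lay 2 genes that differed in opposite directions. The aquaglyceroporin gene aqp9b, 4440 bases away, had 735 embryo counts and 61 liver counts, close to the 740 and 69 of aldh1a2. The hepatic lipase gene lipc had 8 embryo counts and 4923 liver counts. The nearest feature to rbp4l, slc26a1 at 11313 bases, had 173 embryo counts and 11 liver counts. The second nearest, the rod phosphodiesterase gene pde6b at 14435 bases, had 241 embryo counts and 2 liver counts. The gene islr2, 490 bases from stra6, had 2754 embryo counts and no liver count, and ush1c on the same side of the comparison had 268 and 27. The feature LOC100329275, 8765 bases from rbp4, had 7926 embryo counts and 4 liver counts, the opposite direction to rbp4.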
